A study of Mus musculus with 4 samples.

Results

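Interferon-stimulated genes are the genes that cells switch on when an interferon reaches its receptor. Here they are the 41 genes of a fixed list: 27 that answer mainly to type I interferons and 14 that are best known as targets of interferon-gamma. Probes were chosen by the gene symbol of the platform annotation, or its current synonym. That gave 46 probes for 39 of the 41 genes, out of 21020 named probes for 16637 genes; Xaf1 and Gbp4 had no probe. Of the 39 genes, 32 had 1 probe and 7 had 2, whose log2 intensities were averaged.

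The arrays measured colon RNA of female mice in 4 groups of 6, with 1 array per group. The groups were TNBS with ginger extract, TNBS with zingerone, TNBS alone and mock. TNBS is trinitrobenzene sulfonic acid, a hapten that provokes colitis in rodents when it is given in ethanol, and it was used at 250 mg/kg. Zingerone is a phenolic ketone of ginger. All groups, mock included, received 0.1 ml of 50% ethanol, and colons were taken on day 7. The strain is labelled BALB/c for the mock array and BALC/c for the other 3. Whether the RNA on an array came from a single mouse or from several is not labelled, nor is the amount of ginger extract or zingerone, which varied. There was no replicate array, so the differences carry neither error nor p-value, and their precision is not known. The colonocyte marker Guca2a, which encodes guanylin, was far above the median of the named probes on each array. It read 14803 on the ginger array, 34596 on zingerone, 2772 on TNBS and 20660 on mock.

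Interferon-alpha and interferon-beta (type I) bind the receptor of Ifnar1 and Ifnar2 and activate ISGF3, a complex with STAT2 and IRF9 that binds the interferon-stimulated response element (ISRE). Interferon-gamma binds the receptor of Ifngr1 and Ifngr2 and acts through the gamma-activated site (GAS) to induce, among others, the factor IRF1 and the GTPases that attack intracellular pathogens. Gut epithelium also responds to interferon-lambda, which uses ISGF3 as well.

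The promoters show how closely the members share these elements. RefSeq promoters (GRCm38.p6) of 300 bases, 250 before and 50 from the gene's start, were found for 29 of the 39 genes. They were searched on both strands for the ISRE core, spelled GAAA, then NN, then GAAA, and for the GAS, spelled TTCNNNGAA, which reads the same on either strand. The ISRE core was present in 17 of the 29 members (58.6%) and in 3.99% of the 27025 genes of the promoter table. A GAS was present in 8 members (27.6%) and in 9.55% of all genes, and both motifs in 4 members, Oas1a, Bst2, Igtp and Irgm2, against 0.54% of all genes. By class, the ISRE core was found in 10 of 18 type I members and 7 of 11 interferon-gamma members. A match describes the letters of this window and is no evidence of binding.

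The following 4 promoters belong to the members that were at least 2-fold lower on TNBS than on mock, and are shown with the GRCm38.p6 position and the strand; the capitals mark matches of either motif.
Irgm2, chr11:58214727-58215026 (+): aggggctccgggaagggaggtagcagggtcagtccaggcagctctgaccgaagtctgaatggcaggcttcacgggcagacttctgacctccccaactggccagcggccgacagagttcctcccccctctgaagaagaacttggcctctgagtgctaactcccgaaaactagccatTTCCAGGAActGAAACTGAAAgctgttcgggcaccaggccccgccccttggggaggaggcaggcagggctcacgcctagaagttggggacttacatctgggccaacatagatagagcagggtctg
Igtp, chr11:58199306-58199605 (+): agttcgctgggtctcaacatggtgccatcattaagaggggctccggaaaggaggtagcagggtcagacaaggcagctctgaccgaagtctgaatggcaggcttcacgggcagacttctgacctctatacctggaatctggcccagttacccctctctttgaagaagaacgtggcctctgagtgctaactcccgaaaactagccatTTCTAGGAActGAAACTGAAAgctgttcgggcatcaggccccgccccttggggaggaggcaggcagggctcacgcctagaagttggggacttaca
Ifit3, chr19:34583279-34583578 (+): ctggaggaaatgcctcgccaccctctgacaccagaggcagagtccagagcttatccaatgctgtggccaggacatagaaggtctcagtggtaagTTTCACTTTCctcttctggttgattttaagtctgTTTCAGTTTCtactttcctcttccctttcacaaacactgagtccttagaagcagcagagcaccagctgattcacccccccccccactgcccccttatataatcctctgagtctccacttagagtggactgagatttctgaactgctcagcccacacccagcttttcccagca
Ifi44, chr3:151749861-151750160 (-): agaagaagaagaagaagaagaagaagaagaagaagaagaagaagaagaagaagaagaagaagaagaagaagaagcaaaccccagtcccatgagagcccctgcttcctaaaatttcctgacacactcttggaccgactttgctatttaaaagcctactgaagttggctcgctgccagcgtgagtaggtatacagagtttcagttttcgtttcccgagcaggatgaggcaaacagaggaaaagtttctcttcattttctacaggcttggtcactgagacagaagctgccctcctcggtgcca

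Irgm2 and Igtp, which lie close together on chromosome 11, carried the same layout: a GAS, then 2 bases, then an ISRE core, which began 64 bases before the start of Irgm2 and 34 before that of Igtp. The longest run of identical letters between these promoters was 61 bases. Ifit3 had 2 ISRE cores on the opposite strand, at 156 and 122 bases before the start. Ifi44 had neither motif in this window.

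For contrast, Oas1a and Irf7 are the members with the smallest TNBS-minus-mock difference among those with a promoter in the table, and Bst2 is the member that stood highest on TNBS relative to mock; it was added after its values were seen.
Oas1a, chr5:120907476-120907775 (-): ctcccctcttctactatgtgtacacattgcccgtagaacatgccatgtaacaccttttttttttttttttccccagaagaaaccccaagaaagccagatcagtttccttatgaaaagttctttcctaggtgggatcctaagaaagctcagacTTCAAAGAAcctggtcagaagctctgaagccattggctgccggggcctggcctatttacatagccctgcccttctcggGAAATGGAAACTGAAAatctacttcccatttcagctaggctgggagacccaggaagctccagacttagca
Irf7, chr7:141266375-141266674 (-): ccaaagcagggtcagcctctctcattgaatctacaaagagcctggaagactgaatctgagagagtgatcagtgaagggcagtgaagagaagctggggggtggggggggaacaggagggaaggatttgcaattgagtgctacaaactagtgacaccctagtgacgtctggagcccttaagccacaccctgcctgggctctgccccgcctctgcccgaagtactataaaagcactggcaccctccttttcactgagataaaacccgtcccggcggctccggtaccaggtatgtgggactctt
Bst2, chr8:71537423-71537722 (-): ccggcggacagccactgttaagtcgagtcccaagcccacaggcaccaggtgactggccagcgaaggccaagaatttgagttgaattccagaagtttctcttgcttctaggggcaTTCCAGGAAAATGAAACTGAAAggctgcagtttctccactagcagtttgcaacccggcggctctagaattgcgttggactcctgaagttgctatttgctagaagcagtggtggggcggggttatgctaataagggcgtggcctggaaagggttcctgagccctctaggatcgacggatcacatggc

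Oas1a carried 2 ISRE cores that share 4 bases, the first beginning 20 bases before the start, and a GAS farther upstream. Bst2 carried a GAS that overlapped the first of its 2 ISRE cores, and Irf7 had neither motif in this window. Members with matches were thus found among those that were low on TNBS, those that differed little and the member that was high.

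**Figure D1:**
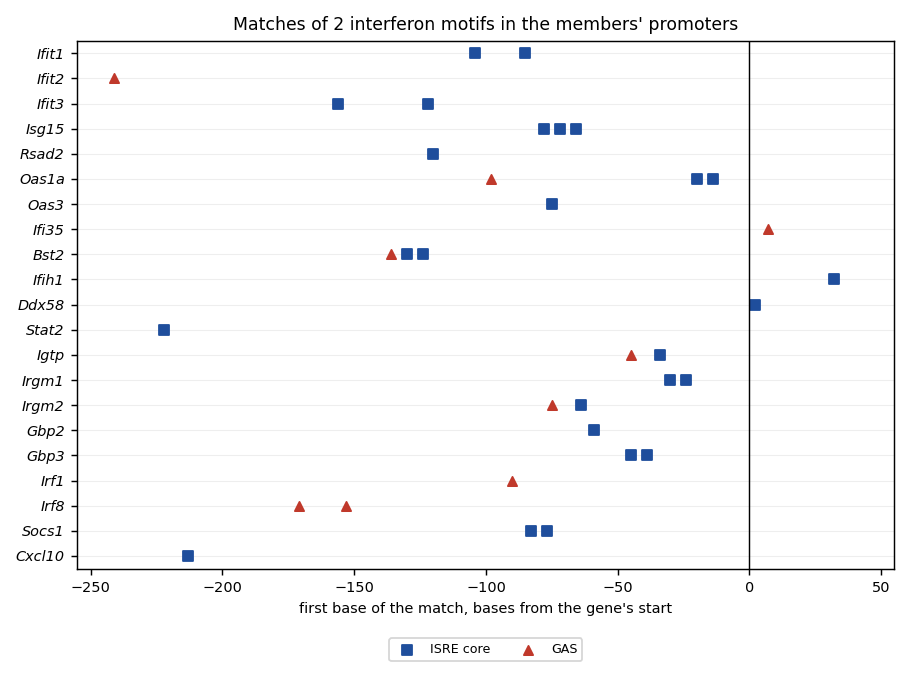
Positions of the ISRE core (squares) and GAS (triangles) matches in the promoters of the 21 members that have at least 1 match; the x axis gives the first base of a match in bases from the gene's start, negative before it. Most matches lie before the start, and those of Ifi35, Ifih1 and Ddx58 lie after it.

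Intensities are the deposited linear Cy3 values, and a difference is the log2 ratio of 2 arrays. The cut for a measured gene was the array's median over named probes (270.5 on mock), to be met on 1 array or more. Of the 39 genes 37 were measured; Zbp1 and Ddx58 were not. Among the measured, 26 reached that median on all 4 arrays, and 4 on a single array, 3 of them on mock (Ifit2, Irf9 and Gbp3) and Mx1 on TNBS, so a filter of this kind favours genes that differ. Counts are therefore given over all 39 genes with a probe. The arrays share almost the same distribution, and no value is under 74.2. Whether background was subtracted is unknown, and any that remains makes differences of dim probes too small. Fewer cells of a type and less RNA per cell cannot be told apart in whole colon.

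Most members read highest on the mock array. Of the 39 genes, 34 were lower on all 3 other arrays than on mock, a pattern seen in 27.9% of the named genes. All 13 interferon-gamma members with a probe did so, and 21 of 26 type I members. The other 5, Rsad2, Oas1a, Oas3, Mx1 and Bst2, read highest on TNBS, as did 30.7% of named genes. No member read highest on ginger or zingerone, against 17.1% and 24.3% of named genes. The summed intensity of the 39 genes was 21103 on ginger, 20267 on zingerone, 27999 on TNBS and 36991 on mock. Since there is a single mock array, a property of that array and the absence of TNBS cannot be told apart, and the 3 differences from mock share it.

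**Figure D2:**
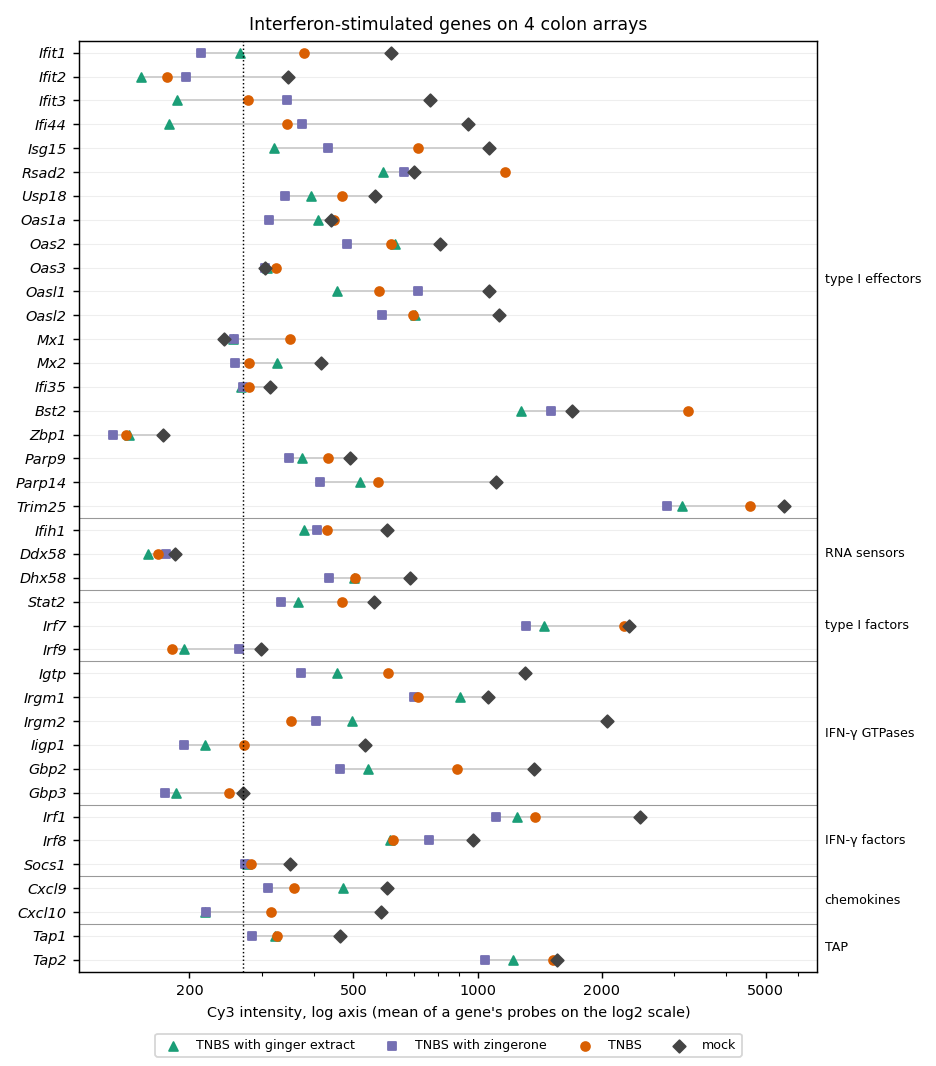
Cy3 intensity (log axis) of the 39 interferon-stimulated genes with a probe on the 4 arrays, 1 symbol per array, grouped by role; the dotted line is the median of the named probes. The mock symbol is the rightmost in 34 genes, and the TNBS symbol in Rsad2, Oas1a, Oas3, Mx1 and Bst2.

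TNBS was compared with mock first. At least 2-fold lower on TNBS were 4 of the 39 genes, against 2.74% of all named genes, and the same 4 stood among the 37 measured genes, against 4.52% of all measured genes. None was at least 2-fold higher, against 3.1% of named genes. Lower by any amount were 34 genes, against 52.3% of named genes. The median difference was -0.35 for the 26 type I members and -0.65 for the 13 interferon-gamma members, and -0.02 for all named genes.

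Among the interferon-gamma GTPases was the member with the largest difference. Irgm2, an immunity-related GTPase, read 353 on TNBS and 2062 on mock, 5.84-fold lower, with 496 on ginger and 406 on zingerone. It was the 16th lowest of the 10056 measured genes. Its probe was high on mock alone and differed little among the other 3 arrays, and it was the only probe of the gene. Igtp, the related GTPase IRGM3, read 605 on TNBS and 1306 on mock, 2.16-fold lower. Irgm1, a regulator of this GTPase family, read 717 on TNBS and 1059 on mock, a difference of -0.56.

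Iigp1, the effector GTPase IRGA6, rested on 2 unlike probes. The brighter read 564 on TNBS and 2264 on mock, 4.02-fold lower. The other was dim, at 131 on TNBS and 126 on mock. Their mean difference of -0.98 stayed just short of 2-fold. Gbp2, a guanylate-binding protein that coats pathogen vacuoles, read 890 on TNBS and 1367 on mock, a difference of -0.62, and Gbp3 was dim on all arrays (249.8 on TNBS, 270.5 on mock).

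Factors and chemokines of the interferon-gamma class were also below mock. Irf1, a transcription factor that interferon-gamma induces early, read 1376 on TNBS and 2476 on mock (-0.85). Irf8, a factor of macrophages and dendritic cells, read 623 on TNBS and 977 on mock (-0.65). Socs1, the feedback inhibitor of JAK kinases, had 2 probes that differed in sign, at 0.33 and -0.95. These 3 factors lay within 2-fold.

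Cxcl10, a chemokine that draws CXCR3-bearing T cells, read 315 on TNBS and 583 on mock (-0.89). Cxcl9, which acts on the same receptor, had probes at -0.24 and -1.25. Tap1, a subunit of the transporter that loads peptides for class I molecules, read 327 on TNBS and 464 on mock (-0.51), and its partner Tap2 read 1521 on TNBS and 1557 on mock (-0.03). Every member of this class was thus below mock in its gene mean, by amounts that ran from -0.03 to -2.55.

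Among type I effectors, the IFIT proteins bind viral RNA ends and block its translation. Ifit3 read 277.5 on TNBS and 768.5 on mock, 2.77-fold lower. Ifit2 read 176 on TNBS and 346 on mock (-0.98), and Ifit1 read 378 on TNBS and 615 on mock (-0.70). Ifi44, an antiviral protein of less settled mechanism, read 345 on TNBS and 949 on mock, 2.75-fold lower. All 4 read lower on each of the 3 arrays with TNBS than on mock.

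Isg15, a ubiquitin-like modifier, read 719 on TNBS and 1066.5 on mock (-0.57), and Usp18, the protease that removes it and restrains the receptor, read 469.5 on TNBS and 564.5 on mock (-0.27). Parp14, an ADP-ribosyltransferase, read 572 on TNBS and 1107 on mock (-0.95). Trim25, a ubiquitin ligase of the RIG-I pathway and the brightest member, read 4591 on TNBS and 5529 on mock (-0.27). Parp9 had a dim probe at 0.10 and a brighter probe at -0.44.

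The oligoadenylate synthetases, which make the activator of RNase L, did not move together. Oas2 read 616.5 on TNBS and 808.5 on mock (-0.39), Oas1a 448.5 on TNBS and 441.5 on mock (0.02), and Oas3 was at 0.11 and 0.07 in its 2 probes. The OAS-like genes were lower: Oasl1, which restrains Irf7 translation in mice, read 575.5 on TNBS and 1068.5 on mock (-0.89), and Oasl2 read 699 on TNBS and 1125 on mock (-0.69). Oas1a has close paralogs in the mouse, and probe sequences were not used here, so cross-hybridisation with them was not tested.

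Bst2, Rsad2 and Mx1 went the other way. Bst2, also called tetherin, which holds budding virions at the cell surface, read 3246.5 on TNBS and 1691 on mock, 1.92-fold higher. Rsad2, the antiviral enzyme viperin, read 1163.5 on TNBS and 701 on mock, 1.66-fold higher. Mx1, a dynamin-like GTPase whose gene is defective in most inbred mouse strains, had 1 probe at 654 on TNBS and 303 on mock, 2.16-fold higher, and another at 189 on TNBS and 194 on mock. Mx2 read 279 on TNBS and 416.5 on mock (-0.58).

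RNA sensors and type I factors were low or level. Ifih1, which encodes the long-RNA sensor MDA5, read 430.5 on TNBS and 602 on mock (-0.48), and Dhx58, the regulatory helicase LGP2, read 504.5 on TNBS and 684 on mock (-0.44). Ddx58, the sensor RIG-I, was dim in both probes. Irf9, the DNA-binding part of ISGF3, read 182 on TNBS and 297.5 on mock (-0.71). Stat2 read 468 on TNBS and 561 on mock (-0.26), and Irf7, the factor that amplifies interferon production, read 2271 on TNBS and 2332.5 on mock (-0.04). Ifi35 differed by -0.17 and Zbp1, a sensor of Z-form nucleic acid, by -0.30, at values near or under the median of the named probes.

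**Figure D3:**
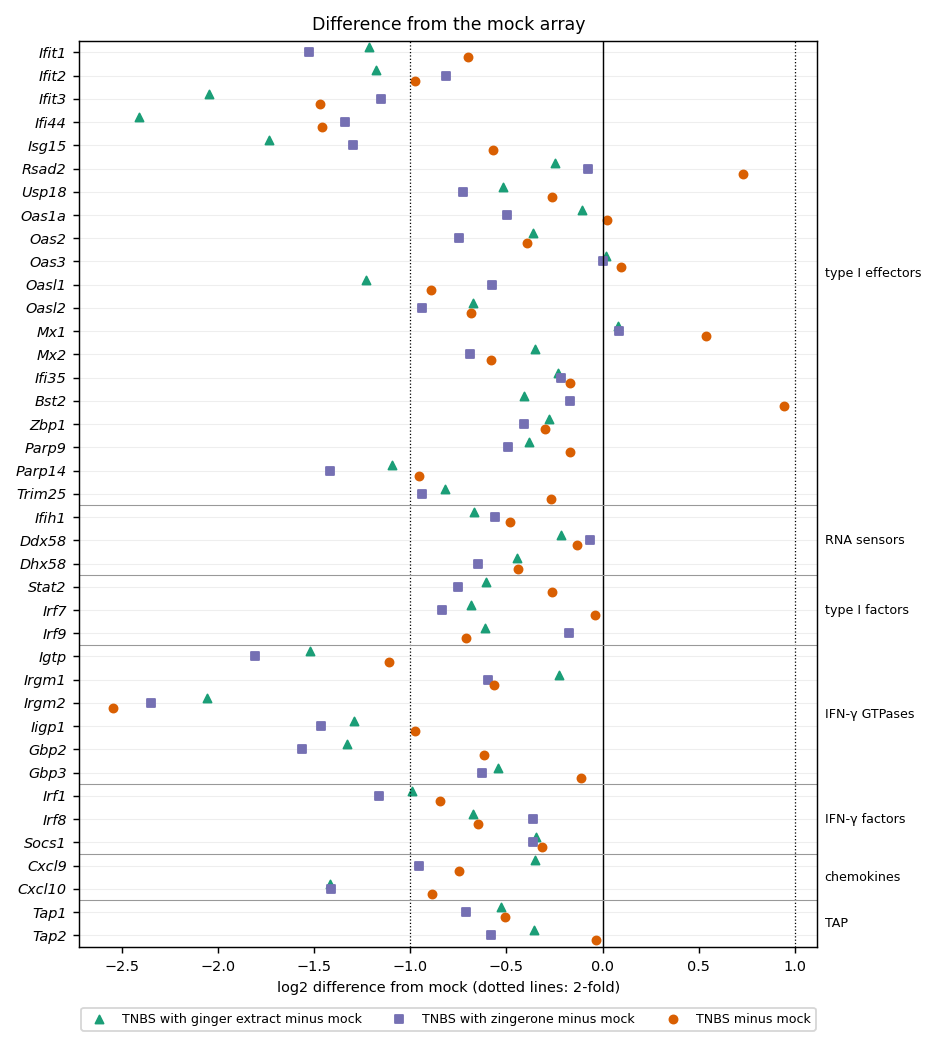
Log2 difference of the ginger, zingerone and TNBS arrays from the mock array for each of the 39 genes; dotted lines mark 2-fold. Nearly all symbols lie left of 0, Irgm2 farthest for TNBS at -2.55, while the TNBS symbols of Bst2, Rsad2 and Mx1 lie to the right.

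Ginger extract and zingerone were compared with TNBS alone to see whether the members lay nearer to mock after treatment. Most lay below TNBS, and so on the side away from mock for most genes. On the ginger array 31 of the 39 genes read lower than on TNBS (49.1% of named genes did), and on the zingerone array also 31 (54.2%). The medians were -0.21 and -0.14 on ginger for type I and interferon-gamma members, and -0.29 and -0.31 on zingerone. All named genes had a median of 0.00 on ginger and -0.03 on zingerone. At least 2-fold lower were 2 members on ginger (1.5% of named genes) and 1 on zingerone (1.79%), and none was 2-fold higher on either (0.817% and 2.78%). The same members stood among the 37 measured genes, against 2.48% of all measured genes on ginger and 2.96% on zingerone. These counts are small beside such shares. Both comparisons share the TNBS array.

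Bst2 passed 2-fold on both treated arrays, at 1273 on ginger and 1504 on zingerone, against 3246.5 on TNBS. Isg15 did so on ginger alone, at 321 on ginger and 434.5 on zingerone, against 719 on TNBS, and Rsad2 came close, at 590.2 on ginger and 664 on zingerone, against 1163.5 on TNBS. The brighter Mx1 probe read 356 on ginger and 385 on zingerone, against 654 on TNBS. For Bst2 and Rsad2, high on TNBS, the treated arrays lay under the mock level (1691 and 701), and for Isg15 they lay farther from it than TNBS did.

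Gbp2 was lower again, at 543 on ginger and 464 on zingerone, against 890 on TNBS. Irf7 read 1452 on ginger and 1307 on zingerone, against 2271 on TNBS, although TNBS and mock had been level. Trim25 read 3128 on ginger and 2879 on zingerone, against 4591 on TNBS. Zingerone was the lowest array for these 3 genes, followed by ginger, TNBS and mock.

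Where a member was higher on a treated array than on TNBS, the largest differences were 0.49 for Irgm2, 0.40 for Cxcl9 and 0.34 for Irgm1 on ginger, and 0.54 for Irf9, 0.32 for Ifit3 and 0.32 for Oasl1 on zingerone. None of these genes reached its mock value on the treated array.

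**Figure D4:**
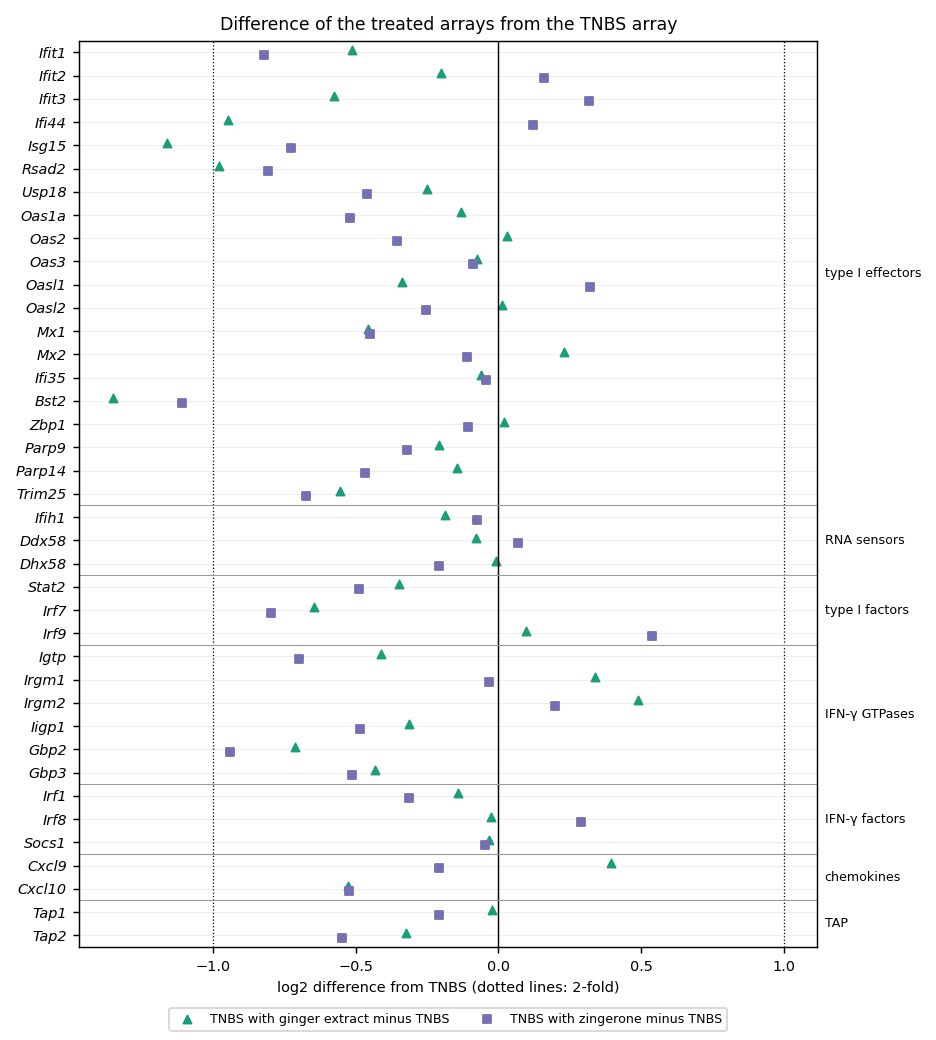
Log2 difference of the ginger and zingerone arrays from the TNBS array for each of the 39 genes; dotted lines mark 2-fold. Most symbols lie between -1 and 0, with Bst2 beyond -1 on both arrays and Isg15 on ginger.

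Set against mock, the treated arrays had more members past 2-fold than TNBS alone. These counts depend on the cut, since Ifit2 (-0.98), Iigp1 (-0.98) and Parp14 (-0.95) lay just short of it on TNBS. At least 2-fold lower were 12 of 39 on ginger, against 0.655% of named genes, and 11 on zingerone, against 0.643%. The same members stood among the 37 measured genes, against 1.08% of all measured genes on ginger and 1.05% on zingerone. None was 2-fold higher on either (0.992% and 0.944% of named genes). Lower by any amount were 37 genes on each, against 49.7% of named genes on ginger and 51.4% on zingerone. The median over type I members was -0.56 on ginger and -0.67 on zingerone, and over interferon-gamma members -0.68 on ginger and -0.95 on zingerone. Whether the differences from mock differ in size between the 3 arrays was not tested.

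The 12 on ginger were Irgm2, Igtp, Iigp1, Gbp2 and Cxcl10 of the interferon-gamma class and Ifi44, Ifit3, Isg15, Oasl1, Ifit1, Ifit2 and Parp14 of the type I class. The 11 on zingerone were Irgm2, Igtp, Iigp1, Gbp2, Cxcl10 and Irf1 of the interferon-gamma class and Ifit1, Parp14, Ifi44, Isg15 and Ifit3 of the type I class. The comparisons share the mock array, so an unusual mock value of a gene enters each of them. Members within 2-fold lay between -0.99 (Irf1) and 0.08 (Mx1) on ginger and between -0.95 (Cxcl9) and 0.09 (Mx1) on zingerone.

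Ifi44 was the lowest relative to mock on ginger, at 178.5 on ginger and 949 on mock, 5.32-fold lower; it read 375 on zingerone, 2.53-fold lower than mock. Ifit3 read 186 on ginger and 346 on zingerone, against 768.5 on mock, 4.13-fold and 2.22-fold lower. Igtp read 455 on ginger and 373 on zingerone, against 1306 on mock, 2.87-fold and 3.50-fold lower. Ginger was the lowest array for Ifi44 and Ifit3, and zingerone for Igtp. Over the 26 type I members ginger was the lowest array for 10 (13.4% of named genes) and zingerone for 13 (30.4%). Over the 13 interferon-gamma members ginger was the lowest array for 2 and zingerone for 10.

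The brighter Iigp1 probe read 370.2 on ginger and 371 on zingerone, against 2264 on mock, 6.12-fold and 6.10-fold lower. Cxcl10 read 218.5 on ginger and 219 on zingerone, against 583 on mock. Ifit1 read 265 on ginger and 214 on zingerone, against 615 on mock. Both treated arrays were far below mock for these genes.

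Parp14 read 518 on ginger and 414 on zingerone, against 1107 on mock, 2.14-fold and 2.67-fold lower. Oasl1 read 455 on ginger and 718 on zingerone, against 1068.5 on mock, and passed 2-fold on ginger. Irf1 read 1248 on ginger and 1108 on zingerone, against 2476 on mock, 1.98-fold and 2.24-fold lower, so its values straddled the threshold. Ifit2 read 153 on ginger and 197 on zingerone, against 346 on mock, and both treated values lay under the median of the named probes. Isg15, with the values given above, was 3.32-fold lower than mock on ginger and 2.45-fold lower on zingerone, and Gbp2 2.52-fold and 2.95-fold lower.

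Ginger and zingerone differed little from each other over the members. The ginger array was lower for 14 of 39 genes, against 44.1% of named genes. A single member passed 2-fold, Ifi44 at 178.5 on ginger and 375 on zingerone (-1.07), against 0.451% of named genes and 0.746% of measured genes. None was 2-fold higher on ginger, against 0.216% of named genes. Ifit3 (-0.89), Oasl1 (-0.66), Irf9 (-0.44) and Isg15 (-0.44) followed in the same direction. Lower on ginger were 2 of the 13 interferon-gamma members. The gene means of all 6 GTPases were higher on ginger, by 0.08 to 0.37. For Iigp1 this rested on its dim probe, at 129 on ginger and 101 on zingerone. The brighter Iigp1 probe read 370.2 on ginger and 371 on zingerone. Cxcl9 was higher on ginger by 0.60, of which its probes gave 0.33 and 0.88. Ifi44, Ifit3 and Irf9 lay under the median of the named probes on ginger.

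The interferon genes, which act upstream of the members, gave little signal. Of 21 interferon genes 7 had a probe, none differed 2-fold in any comparison, and Ifnb1 (162.5 on TNBS, 147.5 on mock) and Ifng (217.5 on TNBS, 236 on mock) stayed under the cut for measured genes. Ifna11 read 317 on TNBS and 269 on mock, and Ifna13 read 215 on TNBS and 232 on mock. Among receptor and JAK-STAT genes 9 had a probe. Ifnar1 read 905 on TNBS and 745.5 on mock (0.28), Ifnar2 353 on TNBS and 237 on mock (0.58), Ifngr1 644 on TNBS and 614 on mock (0.07), and Ifngr2 653 on TNBS and 641 on mock (0.03). No gene of this list passed 2-fold in any of the 6 comparisons.

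Of 13 sensors and adaptors that induce interferons, 1 was 2-fold higher on TNBS than on mock (3.1% of named genes) and none lower (2.74%). This was Ikbke, a kinase of interferon regulatory factors, at 1018 on TNBS and 459 on mock, with 536.5 on ginger and 526 on zingerone. Irf5 read 845 on TNBS and 516 on mock (0.71), with 629 on ginger and 421 on zingerone, 2.01-fold lower on zingerone than on TNBS. Tlr7, a receptor for single-stranded RNA, read 331 on TNBS and 192.5 on mock (0.78).

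Other genes known to be induced by interferons split. Among 21 further type I genes with a probe, 3 were 2-fold higher (3.1% of named genes) and 1 lower (2.74%) on TNBS, with a median of 0.16. Ifi204, a DNA sensor, read 1567 on TNBS and 416.5 on mock, and Ifitm3, which blocks virus entry, read 24167 on TNBS and 7941 on mock. On the treated arrays both were lower than on TNBS, Ifi204 at 397 on ginger and 672 on zingerone, and Ifitm3 at 10607 on ginger and 12159 on zingerone. TNBS was the highest array for both, as it was for Bst2 and Rsad2.

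Among 12 further interferon-gamma genes, 1 was 2-fold higher (3.1% of named genes) and 2 were lower (2.74%) on TNBS, with a median of -0.35. The GTPase Ifi47 read 937 on TNBS and 1892 on mock, and stayed at 945.5 on ginger and 738 on zingerone. The transcription factor Batf2 read 196 on TNBS and 404 on mock. Cd274, the ligand PD-L1, read 1156 on TNBS and 607 on mock, with 666 on ginger and 542.5 on zingerone, and Serpina3g read 957 on TNBS and 1023 on mock, with 829 on ginger and 497 on zingerone. Class I presentation and immunoproteasome genes had 3 of 13 lower on TNBS and none higher (median -0.35), against 2.74% and 3.1% of named genes. Psmb9, an immunoproteasome subunit, read 1290 on TNBS and 3683 on mock, with 1056 on ginger and 898 on zingerone. Psmb10 was lower in both of its probes, at -0.91 and -2.20, and Tapbpl, a tapasin-like protein of peptide loading, was at -1.25. B2m, the light chain of class I molecules, read 41248 on TNBS and 25088 on mock, with 21693 on ginger and 19961 on zingerone.

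**Figure D5:**
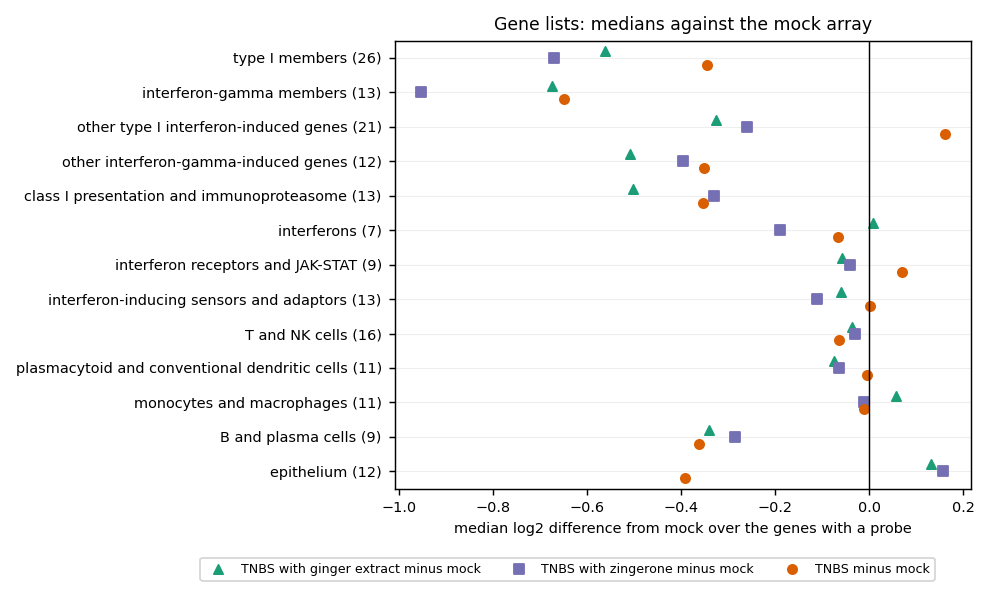
Median log2 difference from mock of the ginger, zingerone and TNBS arrays for the members and the companion lists, with the number of genes with a probe in brackets. The member classes lie between -0.35 and -0.95, the dendritic cell and the monocyte and macrophage lists lie within 0.1 of 0, and the neutrophil and colonocyte lists, which have larger medians on TNBS, are not drawn.

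Some cell type markers also differed between the arrays. Of all named genes 3.1% were at least 2-fold higher and 2.74% at least 2-fold lower on TNBS than on mock. Neutrophil markers (11 of 12 with a probe) summed to 105562 on ginger, 84118 on zingerone and 181947 on TNBS, against 6449 on mock, and 8 were 2-fold higher on TNBS, among them S100a8, S100a9, Lcn2, Retnlg and Mmp8. S100a8 and S100a9 carried most of the sum on the 3 arrays with TNBS. S100a9 read 51921.5 on ginger, 41248 on zingerone and 59655.5 on TNBS. Mmp8 read 387.5 on ginger, 342 on zingerone and 4446 on TNBS. Retnlg read 6773 on ginger, 4387 on zingerone and 38461 on TNBS. Monocyte and macrophage markers (11 of 13) summed to 7804 on ginger, 7824 on zingerone and 32032 on TNBS, against 4901 on mock. That sum was mostly Cd14, at 28071 on TNBS and 1322 on mock, and Cd68 was the other of 2 genes past 2-fold. Most of the 11 markers went the other way and read lower on TNBS than on mock (52.3% of named genes did). The largest such difference was -0.86, for C1qc. Colonocyte markers (10 of 10) summed to 36093 on ginger, 66745 on zingerone and 14062 on TNBS, against 57550 on mock, with 5 lower on TNBS, among them Car4, Guca2a and Slc26a3. Guca2a carried much of the sum on zingerone (34596 on zingerone, 20660 on mock), where Car4 read 2981, against 7778.5 on mock.

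The sums of the other cell types lay within 2-fold of mock. Epithelial markers (12 of 12) summed to 203706 on ginger, 191233 on zingerone and 161659 on TNBS, against 164556 on mock. Krt18 was at least 2-fold higher and Cdx2 at least 2-fold lower on TNBS than on mock. TNBS was the lowest array for 9 of the 12, against 29.5% of named genes. Krt8 (48876 on TNBS, 36534 on mock), Krt18 and Krt20 read higher on TNBS than on mock. Cdx1 read 456 on TNBS and 803 on mock, with 973.5 on ginger and 1091 on zingerone. T and NK cell markers (16 of 20) summed to 4435 on ginger, 3820 on zingerone and 4263 on TNBS, against 4496 on mock, with none past 2-fold on TNBS. Cd3d read 175 on TNBS and 276 on mock, Cd3g 697 on TNBS and 928 on mock, and Il7r 508 on TNBS and 422 on mock. Dendritic cell markers (11 of 11) summed to 2772 on ginger, 2650 on zingerone and 3250 on TNBS, against 2931 on mock, with none past 2-fold on TNBS. Ccr7 read 660 on TNBS and 334 on mock, with 435 on ginger and 301 on zingerone. Flt3 read 310 on TNBS and 244 on mock, and Batf3 563.5 on TNBS and 513 on mock. The plasmacytoid marker Siglech read 131 on TNBS and 171 on mock, under the median of the named probes. B and plasma cell markers (9 of 10) summed to 11399 on ginger, 13007 on zingerone and 9355 on TNBS, against 14496 on mock, with 3 lower, among them Jchain and Mzb1. No marker has a value of 0 on these arrays, whose lowest value is 74.2. The part of these cells in the members' levels was not tested.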

How the data were processed

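Colon RNA was measured on 1-colour arrays, 1 per group. Per the labels' protocols, the label was Cy3, put on RNA made from 5 µg of total RNA. In the deposited table each of 29922 probes has a linear intensity on 4 arrays. limma is named in the submitters' processing notes, with no version and no role. How background and scale were treated is not given in the sources used here. Once sorted, the deposited intensities of the arrays lie within 1.84% of each other, and no value is under 74.2.

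Probes were named from the platform annotation (21020 with 1 symbol, 8902 with none). RefSeq GRCm38.p6 served to update 3410 symbols, and 52 that it did not resolve were kept as annotated. Among the members, Irgm1 and Irgm2 were named through an updated symbol. Differences are of log2 intensities, without pseudocount, averaged over a gene's probes (Python 3.11.15, pandas 2.3.3, numpy 2.4.6). With 1 array per group no test was run; a gene is called where arrays differ at least 2-fold. The members, companion lists and alternatives were chosen with earlier results of these data known. The text names all members, the 2 genes of each companion list that differed most in TNBS minus mock and the 2 that differed most in a treatment minus TNBS, with the interferon receptors, Ifnb1 and Ifng always; 1 gene of this rule is not reported here. Bst2's promoter, S100a8, Tapbpl, Siglech, Krt8, Krt20 and C1qc were added after their values were seen. Alternatives changed the filter, the averaging of probes, a floor or subtracted background, the scaling between arrays and the probes kept. Steps were tested on simulated data.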

Additional observations from a re-analysis of the deposited data

Results flagged for a closer look

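For 4 members the difference from TNBS had opposite signs on the ginger and the zingerone array and the 2 differences lay at least 0.5 apart on the log2 scale; these differences were not tested. Ifi44 was at -0.95 on ginger and 0.12 on zingerone, -1.07 apart. Ifit3 was at -0.58 on ginger and 0.32 on zingerone, -0.89 apart, and Oasl1 was at -0.34 on ginger and 0.32 on zingerone, -0.66 apart. Cxcl9 was at 0.40 on ginger and -0.21 on zingerone, 0.60 apart, with probes that differed from each other. The 3 type I genes were lower on ginger and the chemokine on zingerone.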

How the results depend on the processing

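Counts of members past 2-fold and class medians were recomputed under 8 alternative settings. Of 192 such values 182 stayed close (counts within 1.5 times, medians within the typical gap between 2 probes of a gene), and no median changed sign. The settings that changed the scaling between arrays could change little, because the deposited arrays already shared almost the same distribution. Counts without a member that stayed so are among the close values. Most of the 10 values that moved did so when the 5th percentile was taken off each array, with a floor of 50. The share of all named genes past 2-fold was not computed at this setting, so its counts stand without a background. The subtraction gave 11 members at least 2-fold lower on TNBS than on mock. Against TNBS it gave 7 lower on ginger, and 4 lower and 1 higher on zingerone. Against mock it gave 19 lower on zingerone, and 15 lower on ginger, a count that is among the close values. The interferon-gamma medians against mock were -1.06 on ginger and -1.42 on zingerone. Between ginger and zingerone 2 members were lower on ginger. With the brightest probe per gene 1 member, Mx1, was 2-fold higher on TNBS than on mock, and Iigp1 was at -2.01. With a filter at the 75th percentile, which left 25 members, the interferon-gamma median of ginger minus mock was -0.99. Leaving out probes that stand apart on 1 array removed Irgm2. No replicate could be left out, and no paired analysis was possible because each group has 1 array. On all 4 arrays, 26 of the 37 measured members reached the median of the named probes; the others are dim on at least 1 array.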
